A study of Mus musculus with 10 samples.

Results

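These results describe the effect of genotype on the transcriptome of mouse peritoneal macrophages 36 hours after an injection of interleukin 4 (IL-4). They rest on the 6 libraries from IL-4-treated mice out of 10 in the series: 3 labelled knockout and 3 labelled wild type. The members are all genes of those 6 libraries that passed a filter on low counts, 11046 of the 22165 Ensembl identifiers in the table, of which 7874 had no count in any of the 6. No expression value was used to choose the libraries. All mice were C57BL/6. The knockout mice carried LysM-Cre, a Cre recombinase expressed from the lysozyme locus Lyz2 in macrophages, neutrophils and their relatives, together with a floxed (fl/fl) allele. For the other genotype the labels disagree: one protocol gives floxed mice without Cre and another gives WT, and they are called wild type here, so each comparison of genotypes is also a comparison of mice with and without Cre. Both groups had received IL-4 bound to an antibody against IL-4 into the peritoneum, and mice of the other 4 libraries had received saline. Cells were lavaged with 5 ml of PBS, stained for CD64, ICAM-2 and CD115 and sorted, and polyadenylated RNA was sequenced. Ages are not given in the labels. The labels do not say whether replicates came from separate animals, so a p-value measures only the spread between these samples, which may be technical.

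IL-4 is a type 2 cytokine that signals through the IL-4 receptor and the transcription factor STAT6. In macrophages it drives alternative activation, a state marked by arginase 1, resistin-like molecules, chitinase-like lectins and particular surface lectins. Resident peritoneal macrophages also divide in response to it. The series concerns how such macrophages handle glutamine, redox balance and respiration while they clear dying cells.

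The 6 libraries held 9775867 to 15024073 counted reads. The sort label was checked on 12 general myeloid markers, all detected. Adgre1, the gene of the macrophage antigen F4/80, stood at 687.6, 613 and 558 CPM (read counts scaled to the size of the library) in the knockout libraries and at 801, 613 and 678 CPM in the wild-type libraries. Gata6, the transcription factor that defines large resident peritoneal macrophages, stood at 734, 648 and 642 CPM in knockout and at 523, 526 and 504 CPM in wild type, and its difference did not pass the test (adjusted p = 0.333). On a principal component analysis of the 6 libraries, the first component held 33.5% of the variance and placed the knockout libraries at -42 to -16.8 and the wild-type libraries at 13.7 to 35.5. On the second component (20.9%), knockout replicate 1 stood apart at 45, with the other libraries at -28.8 to 7.7.

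Knockout macrophages had more RNA of the growth factor Igf1, the calcium channel subunit Cacnb4 and the receptors Cd200r3 and Il1rl1. They had less RNA of the lectins Chil3 and Clec10a, of Crispld2 and Fkbp5, of the acute-phase gene Saa3, the chemokine Cxcl13 and the formyl peptide receptors Fpr1 and Fpr2. The test called 116 genes, which is 1.05% of the 11046 tested, at a Benjamini-Hochberg adjusted p under 0.05 in edgeR's quasi-likelihood test. Of these, 51 were higher in knockout (0.462% of all tested) and 65 lower (0.588%). Differences are given as log2 of knockout over wild type with the standard error. All 116 called genes had 3 knockout libraries that did not overlap the 3 wild-type libraries, as did 20.7% of all genes tested. The smallest called difference was 0.86 on the log2 scale, and 49 of the higher and 61 of the lower genes were past 2-fold. Over all tested genes the median difference was 0.02. At an unadjusted p under 0.05 there were 1621 genes (14.7%).

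**Figure D1:**
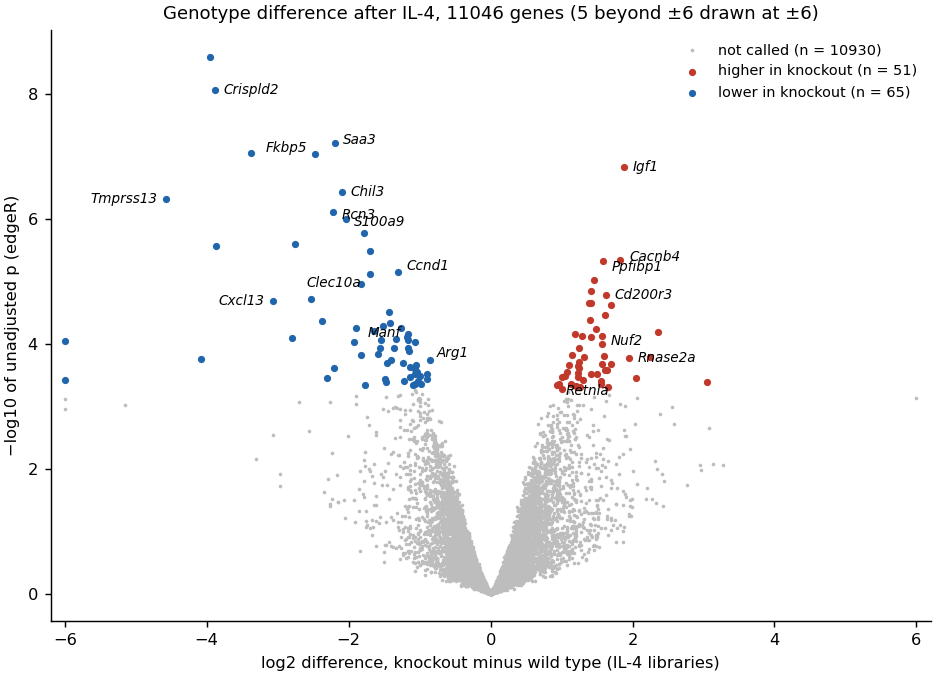
Each point is 1 of 11046 genes, with the log2 difference between knockout and wild type after IL-4 on the horizontal axis and -log10 of the unadjusted p on the vertical axis. Coloured points are the 51 genes called higher and the 65 called lower in knockout, and 5 genes beyond 6 in size are drawn at the edge.

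The number of calls depended on single libraries. There were 20 calls (4 higher, 16 lower) without wild-type replicate 1, 35 (10 and 25) without wild-type replicate 2, and 27 (6 and 21) without wild-type replicate 3. Without knockout replicate 3 there were 51 (21 and 30). Leaving out knockout replicate 1 gave 141 (81 and 60) and leaving out knockout replicate 2 gave 115 (60 and 55), so in these 2 fits the higher genes were the majority. A set of 19 genes kept the call in all 6 fits, among them Igf1, Cacnb4, Ppfibp1, Crispld2, Cxcl13, Fkbp5, Saa3, Chil3, Clec10a, Rcn3, S100a9, Fpr2, Fcgr4, Ccnd1, Ttc39c, Tmprss13 and Cd300ld2. Of the genes named first above, Cd200r3, Il1rl1 and Fpr1 kept it in only 4, 1 and 3 of the 6 fits. No called gene changed sign in any of these fits.

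The genes of alternative activation split in both directions. Of 33 tested members of this list, 3 were called higher and 5 lower, against 0.462% and 0.588% of all tested genes. The median difference was -0.05, against 0.02 over all genes. Like the other lists, it was written with earlier results of these data known. Its counts are thus not independent of them. Chil3 (chromosome 3, 106147554 to 106167564, mm10), which encodes the secreted chitinase-like lectin Ym1, stood at 499.6, 394.9 and 307 CPM in knockout and at 1996, 1491 and 1622 CPM in wild type (log2 -2.09 ± 0.22, adjusted p = 5.67e-04). Every knockout library was below every wild-type library, and the means differed 4.25-fold. Clec10a, a galactose-binding lectin of alternatively activated macrophages, held 43.4, 57.3 and 34.8 CPM in knockout against 161, 134 and 145 CPM in wild type (log2 -1.70 ± 0.24, adjusted p = 0.00462). Clec7a, which encodes the beta-glucan receptor dectin-1 and is annotated as a polymorphic pseudogene, fell by 1.43 ± 0.23 (adjusted p = 0.0121). Tgm2, transglutaminase 2, was at 1.28 to 3.34 CPM in knockout and at 10.4 to 16.5 CPM in wild type (log2 -2.38 ± 0.39, adjusted p = 0.015). Arg1, the arginase of alternative activation, was still abundant in knockout, at 5696 to 6308 CPM against 9491 to 12260 CPM, and its fall of 0.86 was the smallest among called genes (adjusted p = 0.0299).

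The 3 members called higher were Retnla, Ccl24 and Rnase2a. Retnla encodes RELM-alpha, a secreted product of alternatively activated macrophages, and held 6663, 7788 and 5262 CPM in knockout and 3619, 3927 and 2730 CPM in wild type (log2 0.94 ± 0.20, adjusted p = 0.0447). It was thus 1.92-fold higher while Chil3 and Arg1 were lower in the same libraries. Ccl24, an eosinophil-attracting chemokine, stood at 140 to 183 CPM against 78.2 to 81.6 CPM (log2 0.96 ± 0.20, adjusted p = 0.0442). Rnase2a, an eosinophil-type ribonuclease gene, had the largest rise by the naming rule (17.8, 13.7 and 11.2 CPM against 4.64, 1.92 and 4.62 CPM, log2 1.95 ± 0.37, adjusted p = 0.0289). Its family has close copies that could share reads. Chil3 and Clec10a kept the call in every fit that left out 1 library, whereas Arg1 lost it in all 6, Tgm2 only without wild-type replicate 1 (adjusted p = 0.117) and Clec7a in 2 fits (up to 0.103). Retnla and Ccl24 kept it in 1 of 6 fits, with adjusted p up to 0.26 and 0.221, and Rnase2a in 2, with up to 0.117. In a fit of all 10 libraries Clec7a, Arg1 and Rnase2a were not called (adjusted p = 0.117, 0.141 and 0.0508). The genes of the receptor chain Il4ra and of Stat6 differed by -0.19 and 0.11 and were not called (adjusted p = 0.748 and 0.862). Both were picked for mention after their values were seen.

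The start-site windows of 2 of these oppositely placed genes are shown because both hold the STAT6 recognition pattern TTCNNNNGAA, in capitals. Each runs 5′ to 3′ on the gene's strand from 175 bases before to 25 bases after the RefSeq start (GRCm38.p6), at chr16:48842434-48842633 on the plus strand for Retnla and chr6:129472755-129472954 on the minus strand for Clec7a.
Retnla: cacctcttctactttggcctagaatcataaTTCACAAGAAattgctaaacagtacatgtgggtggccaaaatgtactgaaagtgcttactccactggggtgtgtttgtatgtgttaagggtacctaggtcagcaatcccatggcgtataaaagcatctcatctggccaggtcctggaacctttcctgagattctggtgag
Clec7a: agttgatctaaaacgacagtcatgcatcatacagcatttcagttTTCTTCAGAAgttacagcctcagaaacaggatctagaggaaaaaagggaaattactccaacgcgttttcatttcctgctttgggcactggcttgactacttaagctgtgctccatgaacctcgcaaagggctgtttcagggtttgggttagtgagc
The pattern was found in the windows, 250 bases before to 50 after a start, of 5 of 23 list members with a window (21.7%), of 3 of 38 genes called higher, of 4 of 45 called lower, and of 6.68% of the 8796 tested genes with a window. A match describes letters and not binding.

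Genes of secreted growth and matrix factors were called higher in 2 cases and lower in 2 of 25 tested. The shares over all tested genes were 0.462% and 0.588%. Igf1 (chromosome 10, 87858265 to 87937042), which encodes insulin-like growth factor 1, stood at 643, 624 and 576 CPM in knockout and at 154.9, 173 and 174 CPM in wild type (log2 1.88 ± 0.18, adjusted p = 2.70e-04). The means were 614 ± 34.5 and 167 ± 10.7 CPM (SD, n = 3 each), a 3.67-fold difference with the smallest p among genes called higher. Hgf, the gene of hepatocyte growth factor, rose by 1.23 ± 0.25 from 25.1 to 39.2 CPM in wild type to 58.2 to 90.4 CPM in knockout (adjusted p = 0.0375), and kept this in 1 of 6 fits without a library (adjusted p up to 0.199). Crispld2, a secreted protein gene induced by glucocorticoids, was at 3.04, 2.29 and 1.68 CPM in knockout and at 39, 32.7 and 31.5 CPM in wild type (log2 -3.89 ± 0.30, adjusted p = 4.72e-05), a 14.8-fold difference. Mmp8, a collagenase stored in neutrophils, was at 1.2 to 3.29 CPM against 11.6 to 17.4 CPM (log2 -2.53 ± 0.38, adjusted p = 0.00895). Mmp8 lost its call only without wild-type replicate 1 (adjusted p = 0.0865).

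Of 31 tested glucocorticoid-responsive genes, 7 were called lower and 0 higher, against 0.588% and 0.462% of all tested genes. The median was -0.39, and 24 of 31 were below 0 (48.2% of all tested genes were). The list, which includes Crispld2 and Saa3, was written with earlier results of these data known. Its counts are thus not independent of these data. The count fell to 3 lower without wild-type replicate 1 and was 5 to 7 without each of the other libraries. DESeq2 called 11 lower, as many as in the endoplasmic reticulum list and as were higher in the mitosis list. Glucocorticoids act through the receptor encoded by Nr3c1, a list member whose own difference was 0.14 (adjusted p = 0.783). Fkbp5, a co-chaperone of that receptor and one of its standard target genes, held 12.2, 9.33 and 10.1 CPM in knockout and 61.2, 56.7 and 56.6 CPM in wild type (log2 -2.47 ± 0.23, adjusted p = 2.01e-04). The SD within the groups was 1.46 and 2.63 CPM (n = 3 each), and the means lay 5.54-fold apart. Saa3 (chromosome 7, 46711998 to 46715700), an acute-phase serum amyloid A gene expressed by macrophages, stood at 995, 995 and 717 CPM against 4759, 3689 and 4014 CPM (log2 -2.20 ± 0.20, adjusted p = 2.01e-04). The other called members were Crispld2, Tgm2, Fpr1, Mt1 and Mt2. Further standard targets were lower without passing the test: Tsc22d3 by -0.77 (adjusted p = 0.146), Sgk1 by -0.83 (0.121) and Per2 by -2.70 (0.0643), while Dusp1 was at -0.09 (0.878) and Zfp36 at 0.12 (0.82). These 5 and Nr3c1 were picked after their values were seen. Several members also answer to metals, cytokines or bacterial products, and the list median was -0.54 to -0.37 over the fits without 1 library.

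The metallothioneins Mt1 and Mt2, small cysteine-rich proteins that bind zinc and copper, lie 5.51 kb apart on chromosome 8 and were both lower. Mt1 stood at 129, 141 and 97.6 CPM in knockout and at 304, 221 and 244 CPM in wild type (log2 -1.07 ± 0.22, adjusted p = 0.0381). Mt2 stood at 2.94, 5.96 and 3.91 CPM against 19, 15.7 and 13.5 CPM (log2 -1.90 ± 0.32, adjusted p = 0.0177). They are closely related and could exchange reads. Mt1 kept its call in 1 and Mt2 in 3 of the 6 fits without a library, and without wild-type replicate 1 the adjusted p was 0.227 and 0.119. Their windows (GRCm38.p6, plus strand, chr8:94178914-94179113 and chr8:94172443-94172642) are shown because both genes moved together. Capitals mark the metal response core TGCACNC or TGCGCNC on either strand.
Mt1: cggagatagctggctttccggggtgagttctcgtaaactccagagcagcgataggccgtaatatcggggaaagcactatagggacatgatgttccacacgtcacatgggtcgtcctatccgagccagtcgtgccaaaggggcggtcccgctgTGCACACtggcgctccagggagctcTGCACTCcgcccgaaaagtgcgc
Mt2: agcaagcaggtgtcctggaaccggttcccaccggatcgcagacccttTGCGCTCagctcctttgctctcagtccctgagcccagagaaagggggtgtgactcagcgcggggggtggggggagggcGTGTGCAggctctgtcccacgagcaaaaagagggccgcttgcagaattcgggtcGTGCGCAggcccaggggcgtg
The core is short and occurred in 40.2% of the windows of tested genes and in 17.8% of those called lower. The glucocorticoid element AGAACANNNTGTNCT was found in 1 window, that of Sgk1, among the 25 of the list and the 8796 of all tested genes.

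**Figure D2:**
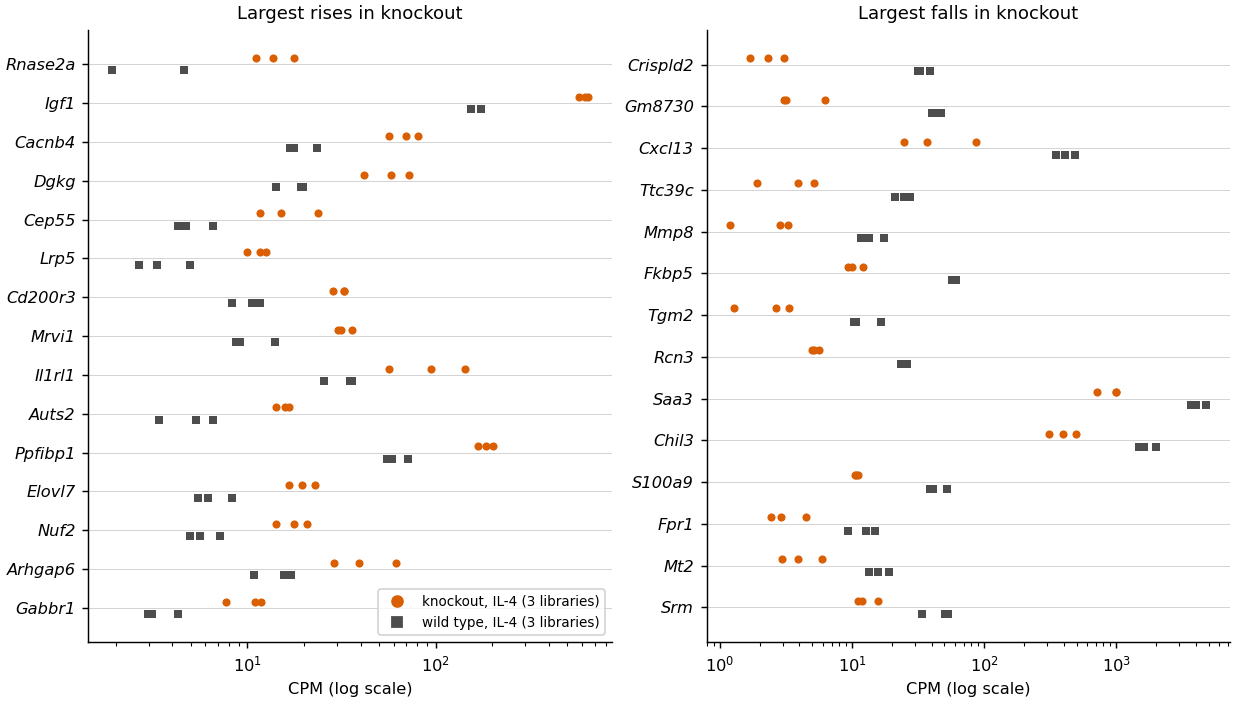
Each marker is the CPM of 1 library on a log axis, with circles for the 3 knockout and squares for the 3 wild-type libraries after IL-4, for the genes with the largest called rises (left) and falls (right). In every row the circles and squares do not overlap, as the naming rule required, and Igf1, Saa3, Chil3 and Cxcl13 are the most abundant.

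Cxcl13 (chromosome 5, 95956951 to 95961068), the B cell chemoattractant made by large peritoneal macrophages, stood at 86.6, 37 and 24.9 CPM in knockout and at 351, 490.4 and 406 CPM in wild type (log2 -3.07 ± 0.41, adjusted p = 0.00928). The means lay 8.42-fold apart, with knockout replicate 1 well above the other knockout libraries. Among 17 chemokine genes tested, Cxcl13 was the 1 called lower and Ccl24 the 1 called higher, and the list median was 0. This list and the C-type lectins below stand beside 0.588% of all tested genes called lower and 0.462% called higher. Fpr1 and its neighbour Fpr2, 3.88 kb apart on chromosome 17, encode receptors for bacterial formyl peptides and for serum amyloid A. Fpr1 stood at 4.46, 2.45 and 2.88 CPM against 12.7, 9.33 and 14.9 CPM (log2 -1.92 ± 0.34, adjusted p = 0.0202). Fpr2 was at 32.2, 24.9 and 28 CPM against 106, 97.3 and 90.9 CPM (log2 -1.79 ± 0.22, adjusted p = 0.00168). C5ar1, the receptor for complement C5a, fell by 1.15 ± 0.21 (adjusted p = 0.0252), and Fcgr4, an activating IgG receptor, by 1.70 ± 0.22 (adjusted p = 0.00258). Of 25 C-type lectin genes tested, Clec10a, Clec7a and Cd302 were lower and 0 higher, with a median of 0.06. Cd302 fell by 1.49 ± 0.31 (adjusted p = 0.0417), but knockout replicate 1 (45.7 CPM) stood above replicates 2 and 3 (20.7 and 21.1 CPM). In fits without 1 library, Cxcl13, Fpr2 and Fcgr4 kept their calls, Fpr1 in 3 of 6 (adjusted p up to 0.121), C5ar1 in 2 (0.154) and Cd302 in 1 (0.189). Fpr2, C5ar1 and Fcgr4 were outside the naming rule and were picked after their values were seen.

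S100a9 and S100a8, whose products form calprotectin, lie 22.6 kb apart on chromosome 3. S100a9 was at 10.5, 10.8 and 11 CPM in knockout and at 41.2, 52.3 and 39.1 CPM in wild type (log2 -2.04 ± 0.23, adjusted p = 0.00108), and S100a8 at 4.63 to 9.33 CPM against 19.5 to 24.1 CPM (log2 -1.58 ± 0.30, adjusted p = 0.0273). Both belong to the neutrophil marker list, of which 12 of 21 entries could be tested. In this list 9 had a negative and 3 a positive difference, and the median was -1.13. With Mmp8, 3 were called lower and 0 higher, against 0.588% and 0.462% of all tested genes. The list was written with earlier results of these data known. Picked after their values were seen, Hp (haptoglobin, log2 -1.42, adjusted p = 0.016), Lrg1 (-1.16, 0.0189), Orm1 (-4.08, 0.0298) and Slpi, a protease inhibitor (-0.90, 0.0417), were also lower. The summed CPM of the neutrophil list was 804 to 962 in knockout and 899 to 1040 in wild type, so the sums overlapped. The mean sum over the wild-type libraries was 951, of which S100a9, S100a8 and Mmp8 held only 44.2, 22.4 and 14.1. For the knockout libraries the mean sum was 907, and these genes held 10.8, 7.49 and 2.44. Members that were not called thus made up most of the sum, so its overlap cannot decide whether neutrophil content was alike. Fewer cells of a type and less RNA per cell cannot be told apart in sorted bulk samples, and the part of residual neutrophils in these differences was not tested. S100a9 kept its call without each library, and S100a8, Hp, Lrg1 and Orm1 in 2 or 3 of the 6 fits (adjusted p up to 0.132, 0.117, 0.13 and 0.184). Slpi kept it in 0 of 6 (up to 0.227).

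Of 20 tested genes for CD200 receptors, the IL-33 receptor and a set of inhibitory receptors, 2 were called, both higher. Of all tested genes 0.462% were called higher. The list was written with earlier results of these data known, so its count is not independent of them. The list median was 0.13. Cd200r3, an activating relative of the CD200 receptor, stood at 32.5, 32.7 and 28.6 CPM in knockout and at 10.6, 8.27 and 11.7 CPM in wild type (log2 1.62 ± 0.24, adjusted p = 0.00815). Il1rl1, the gene of the IL-33 receptor ST2, held 56.9, 144 and 94.3 CPM against 25.5, 35.2 and 35.9 CPM (log2 1.61 ± 0.31, adjusted p = 0.0353). Its knockout values were spread widely while the wild-type values lay closer together. Cd200r3 lost its call in 2 of 6 fits (adjusted p up to 0.0701) and Il1rl1 in 5 (up to 0.221).

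Among the other largest rises, Cacnb4, a calcium channel beta subunit, was at 69.9, 56.7 and 80.6 CPM in knockout and at 16.9, 23.6 and 17.7 CPM in wild type (log2 1.83 ± 0.24, adjusted p = 0.00321). Ppfibp1, a liprin-beta scaffold gene, was at 168, 201 and 185 CPM against 55.1, 71.5 and 58.6 CPM (log2 1.58 ± 0.21, adjusted p = 0.00321). Dgkg, a diacylglycerol kinase (log2 1.69 ± 0.26), Lrp5, a Wnt co-receptor (1.64 ± 0.33), Gabbr1, a GABA-B receptor subunit (1.56 ± 0.33), Elovl7, a fatty acid elongase (1.57 ± 0.28), and Arhgap6, a GTPase-activating protein gene (1.57 ± 0.31), were also called. Mrvi1, a substrate of cGMP-dependent kinase, rose by 1.61 ± 0.26 and Auts2, a chromatin-associated factor, by 1.60 ± 0.30. Genes outside the rule, picked after their values were seen, included the protein kinase C genes Prkca (log2 1.08, adjusted p = 0.0372) and Prkce (1.10, 0.032) and the chimaerin Chn2 (1.48, 0.0178). Cacnb4 and Ppfibp1 kept their calls without each library (adjusted p up to 0.0484 for both). The other 10 lost it in 2 to 5 of the 6 fits, with an adjusted p up to 0.225 for Prkca without wild-type replicate 1.

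Among the other largest falls, Rcn3, a calcium-binding protein of the secretory pathway, was at 4.96, 5.12 and 5.67 CPM in knockout and at 23.4, 26.3 and 23.7 CPM in wild type (log2 -2.22 ± 0.25, adjusted p = 9.26e-04). Srm, spermidine synthase of the polyamine pathway that begins with ornithine, fell by 1.83 ± 0.26 (adjusted p = 0.006), from 33.7 to 53.6 CPM in wild type to 11.1 to 15.8 CPM in knockout. Ttc39c fell by 2.75 ± 0.34 (adjusted p = 0.00227). Gm8730, a processed pseudogene that could take reads from its parent gene, was at 3.04 to 6.27 CPM against 40.6 to 46.8 CPM (log2 -3.37 ± 0.31, adjusted p = 2.01e-04). St6galnac2, a sialyltransferase gene, and its neighbour Cygb, the gene of cytoglobin, 21 kb away, had 0 counts in all 3 knockout libraries and 85 and 58 counts in wild type. With a floor of 3 counts over the knockout group, St6galnac2 was at least 27.4-fold and Cygb at least 18.7-fold lower, which covers counting error only. Both were picked after their values were seen. Rcn3, Ttc39c and Gm8730 kept the call in each fit without 1 library and Srm lost it without wild-type replicate 1 (adjusted p = 0.0566), while St6galnac2 kept it in 2 of 6 (up to 0.13) and Cygb in 0 (up to 0.227).

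Of 61 tested genes of mitosis and cytokinesis, 58 had a positive difference (51.8% of all tested genes did), and the median was 0.66. The test called 3 of them higher and 0 lower, against 0.462% and 0.588% of all tested genes. At an unadjusted p under 0.05 there were 31 of the 61 (14.7% of all tested genes), and DESeq2 called 11, all higher, of its 377 calls among 11046 genes. Nuf2, a subunit of the kinetochore complex that holds microtubules, stood at 17.6, 14.2 and 20.9 CPM in knockout and at 4.97, 5.62 and 7.18 CPM in wild type (log2 1.57 ± 0.28, adjusted p = 0.0214). Cep55, which acts in the final cut between daughter cells, was at 11.7, 23.8 and 15 CPM against 4.72, 6.55 and 4.31 CPM (log2 1.69 ± 0.33, adjusted p = 0.0317). Knl1, a kinetochore scaffold, was at 55.9, 31.3 and 23.6 CPM against 12.4, 15.2 and 10.2 CPM (log2 1.55 ± 0.32, adjusted p = 0.0422). Mki67, the gene of the proliferation antigen Ki-67 and picked after its values were seen, was at 163, 128 and 410.4 CPM against 36.5, 69.6 and 62.7 CPM (log2 2.06 ± 0.43) and did not pass (adjusted p = 0.0619). Its highest value was in knockout replicate 3. All 3 calls were lost in 4 or more of the 6 fits without a library (adjusted p up to 0.13, 0.178 and 0.227), while these fits called 0 to 7 of the list, and its median stayed at 0.56 to 0.76. In the fit of all 10 libraries Nuf2 and Knl1 were not called (adjusted p = 0.142 and 0.148). Genes of DNA replication had 0 of 52 called (12 at an unadjusted p under 0.05, and 3 by DESeq2) and a median of 0.21, with Pola1 at 1.22 ± 0.29 (adjusted p = 0.0742) and Clspn at 1.03 ± 0.25 (0.0813). Ccnd1, a D cyclin that carries cells through G1, went the other way: 416, 420 and 344 CPM in knockout against 1030, 982 and 914 CPM in wild type (log2 -1.31 ± 0.18, adjusted p = 0.00452), which held without each library. It was the 1 call of edgeR's test among 24 tested G1 genes, and DESeq2 called 3 of them, 2 higher and 1 lower.

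The windows of 2 mitotic genes are shown because most of that list shares a motif there, the cell cycle genes homology region TTTGAA, in capitals, through which the DREAM and MuvB complexes time mitotic genes. They lie on the minus strand at chr7:135716355-135716554 (Mki67) and chr9:70421530-70421729 (Ccnb2, the gene of cyclin B2, log2 0.60 with adjusted p = 0.317), GRCm38.p6.
Mki67: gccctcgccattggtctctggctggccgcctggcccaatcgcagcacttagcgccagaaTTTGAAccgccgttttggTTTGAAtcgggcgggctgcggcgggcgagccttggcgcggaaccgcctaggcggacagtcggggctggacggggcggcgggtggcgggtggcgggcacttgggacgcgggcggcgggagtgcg
Ccnb2: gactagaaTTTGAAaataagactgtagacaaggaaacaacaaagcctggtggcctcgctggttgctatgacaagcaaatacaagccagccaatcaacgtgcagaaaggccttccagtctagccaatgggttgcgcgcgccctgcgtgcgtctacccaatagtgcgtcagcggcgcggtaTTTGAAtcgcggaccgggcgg
On either strand, TTTGAA was found in 37 of 51 mitotic genes with a window (72.5%), in 14.5% of all tested genes with a window, in 26.3% of those called higher and in 20% of those called lower. Each motif was counted on its own, so a base may belong to matches of several.

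Of 41 tested chaperones and stress genes of the endoplasmic reticulum, 31 had a negative difference, and the median was -0.48. The test called 1 of them lower and 0 higher, against 0.588% and 0.462% of all tested genes. At an unadjusted p under 0.05 there were 20 of the 41, and DESeq2 called 11, all lower. The call was Manf, a secreted stress-responsive factor of that compartment, at 65.7, 74.2 and 76.9 CPM in knockout against 183, 153.5 and 147 CPM in wild type (log2 -1.16 ± 0.21, adjusted p = 0.0199). It held in 3 of 6 fits without a library, with an adjusted p of 0.13 when wild-type replicate 1 was left out, and the list median was -0.46 to -0.38 over these fits. Picked after their values were seen, Creld2 stood at -1 ± 0.25 (adjusted p = 0.0816), Herpud1 at -0.90 ± 0.22 (0.0849), Dnajb9 at -0.97 ± 0.22 (0.057) and Hspa5, the main chaperone BiP, at -0.77 ± 0.22 (0.138), none past the threshold. The chaperone gene Hsp90b1, picked in the same way, stood at 0.22 (adjusted p = 0.625). Called genes outside the list that act in the secretory pathway, also picked after their values were seen, were Fkbp11 (log2 -1.46, adjusted p = 0.0317), Sec24d of the COPII coat (-1.14, 0.0334), the SNARE gene Bet1 (-1.07, 0.0344) and Slc35b1 (-1, 0.0397), and they kept the call in 0 or 1 of the 6 fits. The windows of Hspa5 (chr2:34771915-34772114) and Creld2 (chr15:88819471-88819670), both on the plus strand of GRCm38.p6, hold the ER stress element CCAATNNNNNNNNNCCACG, which binds NF-Y and ATF6. It is in capitals, and in Creld2 it lies on the opposite strand.
Hspa5: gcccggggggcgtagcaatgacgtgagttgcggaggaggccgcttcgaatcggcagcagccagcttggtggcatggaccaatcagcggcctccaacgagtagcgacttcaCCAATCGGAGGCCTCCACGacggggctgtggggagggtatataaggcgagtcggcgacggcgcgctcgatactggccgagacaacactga
Creld2: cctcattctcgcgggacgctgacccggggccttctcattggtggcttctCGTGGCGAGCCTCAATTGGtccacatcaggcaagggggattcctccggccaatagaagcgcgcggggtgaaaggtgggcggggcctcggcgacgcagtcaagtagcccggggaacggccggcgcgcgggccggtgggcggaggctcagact
This element was in 8 of 32 list members with a window (25%), in 0.125% of all tested genes with a window, and in none of the 38 higher and 45 lower called genes with one. Manf has no window in the table used.

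**Figure D3:**
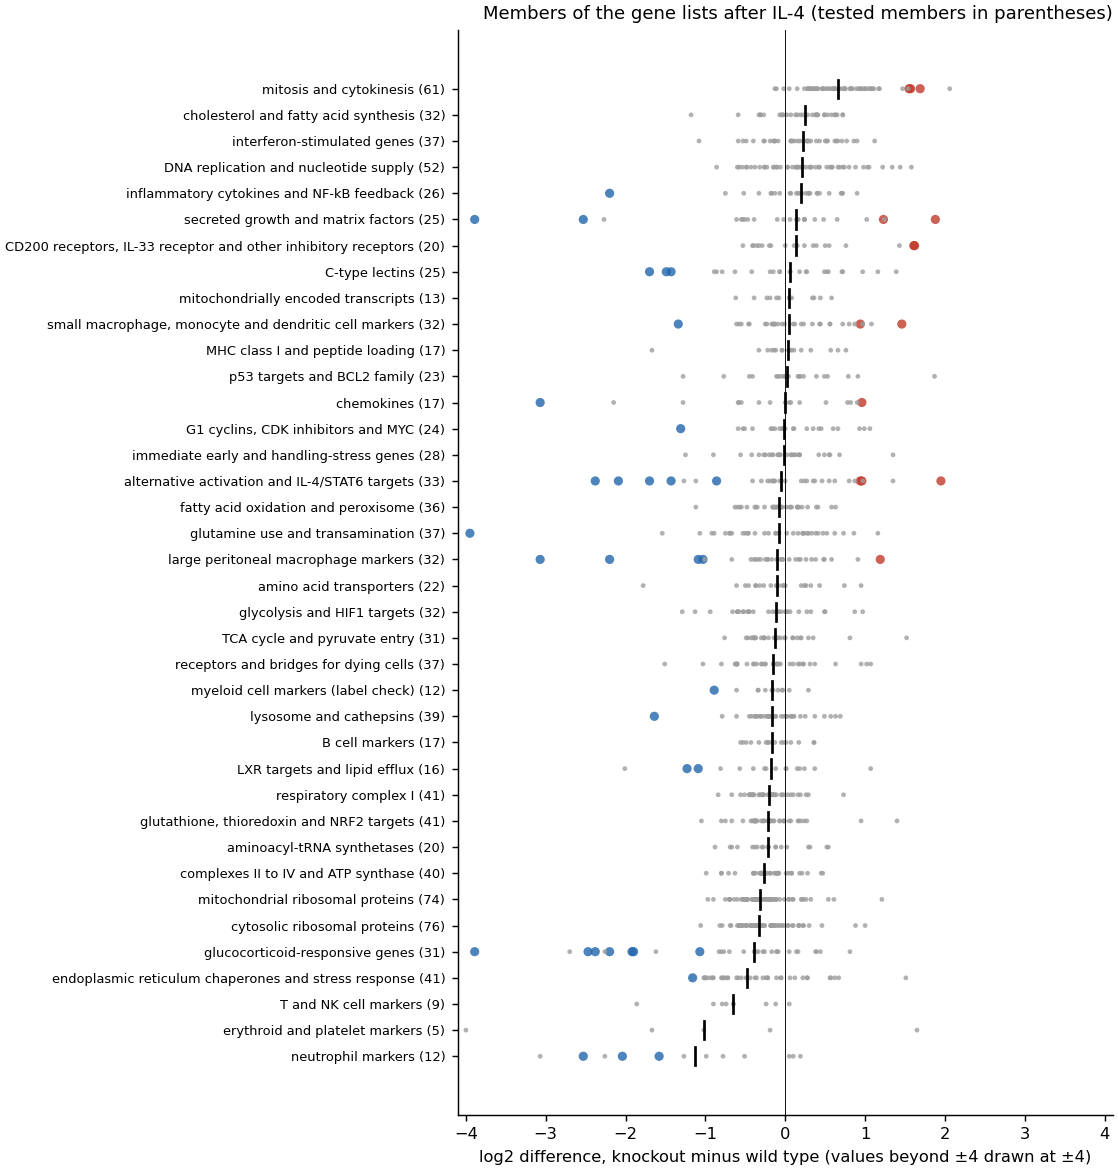
Each point is the log2 difference of 1 tested member of a gene list after IL-4, and the black bar is the list's median. Large points are called genes, red for higher and blue for lower in knockout. Mitosis lies to the right of 0 with 58 of 61 members positive, and the endoplasmic reticulum and glucocorticoid lists lie to the left.

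Metabolic lists are set beside the 1.05% of all tested genes that were called and the 14.7% with an unadjusted p under 0.05. Of 37 tested genes for glutamine use and transamination, 36 were not called, and the list median was -0.08. The transporter list had 0 of 22 called, with Slc38a6 at 0.74 ± 0.20 (adjusted p = 0.115) and Slc7a5, a subunit of the large neutral amino acid exchanger, at -1.78 ± 0.63 (0.221). Glutathione, thioredoxin and NRF2 target genes had 0 of 41 called and a median of -0.21, led by Gpx3 at -1.05 ± 0.27 (adjusted p = 0.104) and Prdx6 at -0.67 ± 0.20 (0.157). Respiratory complex I had 0 of 41 called with a median of -0.20, and complexes II to IV with ATP synthase 0 of 40 with -0.26. Their smallest p belonged to Ndufaf4 (log2 -0.84 ± 0.22, adjusted p = 0.108) and Cyc1 (-0.80 ± 0.23, 0.138). The 13 mitochondrially encoded transcripts had a median of 0.05 and 0 calls, with mt-Nd3 at -0.62 ± 0.19 (adjusted p = 0.164). The citrate cycle list had 0 of 31 called (median -0.13), glycolysis and HIF1 targets 0 of 32 (-0.11, with Higd1a at -1.13 ± 0.27 and adjusted p = 0.0742) and fatty acid oxidation 0 of 36 (-0.08). Aminoacyl-tRNA synthetases had 0 of 20 called and a median of -0.22. At an unadjusted p under 0.05 these lists held 9 genes for glutamine use, 3 transporters, 6 for glutathione, 2 for complex I, 2 for the other complexes, 1 mitochondrial transcript, 0 for the citrate cycle, 10 for glycolysis, 2 for fatty acid oxidation and 4 synthetases. DESeq2 called 1 each in the glutamine, transporter, glutathione, complex I and glycolysis lists and 0 in the others, and limma called 1 in the glutamine list and 0 in the others. When 2-fold and 4-fold changes were simulated at this depth and spread, 36.7% and 86.7% of them were called, so differences under 2-fold would mostly not be called here.

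Of 37 receptors and bridging molecules for dying cells, 0 were called by edgeR, 3 by DESeq2 and 0 by limma, 11 had an unadjusted p under 0.05, and the median was -0.15. Colec12, a scavenger receptor, stood at 57.3, 67.2 and 46.3 CPM in knockout and 32.3, 27.3 and 28.7 CPM in wild type (log2 0.95 ± 0.23, adjusted p = 0.0719), and Marco, another, at 57.5, 82.7 and 141 CPM against 201, 375 and 229 CPM (log2 -1.51 ± 0.34, adjusted p = 0.0722). The bridging receptor gene Mertk, picked after its values were seen, differed by -0.15 ± 0.19 (adjusted p = 0.748). Apoc1 and Apoc2, apolipoprotein genes 11.5 kb apart on chromosome 7 and targets of the sterol receptor LXR, were the 2 called of 16 in that list. Over all tested genes 1.05% were called. Apoc2 fell by 1.23 ± 0.24 (adjusted p = 0.0317) and Apoc1 by 1.09 ± 0.23 (0.0447), whereas the cholesterol exporter Abca1 stood at 1.07 ± 0.26 (0.0804). Apoc2 kept its call in 2 of 6 fits without a library and Apoc1 in 0 (adjusted p up to 0.185 and 0.227 without wild-type replicate 1). Cholesterol and fatty acid synthesis genes had 0 of 32 called (median 0.25, 3 at an unadjusted p under 0.05, 1 by DESeq2), interferon-stimulated genes 0 of 37 (0.22, 6 and 1), MHC class I genes 0 of 17 (0.04, 1 and 0), immediate early genes 0 of 28 (-0.02, 3 and 0), p53 targets 0 of 23 (0.02, 3 and 1), inflammatory cytokines 1 lower of 26 (Saa3), and the lysosome list 1 lower of 39, the tetraspanin gene Cd63 (log2 -1.64 ± 0.28, adjusted p = 0.0182, and up to 0.119 without wild-type replicate 1).

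Lyz2, the lysozyme gene whose locus drives Cre, was at 4084, 3489 and 2837 CPM in knockout and at 7022, 5882 and 6432 CPM in wild type (log2 -0.89 ± 0.18, adjusted p = 0.0375). Its close paralog Lyz1, 5.48 kb away and able to share reads, was higher in knockout at 306.5, 272 and 229 CPM against 111, 87 and 95.7 CPM (log2 1.46 ± 0.21, adjusted p = 0.00537). Lyz2 kept its call in 1 of 6 fits without a library (adjusted p up to 0.207) and Lyz1 in 5 (0.0521 without wild-type replicate 3). Lyz2 was also the 1 called member of the 12 myeloid markers, whose summed level was 8290 to 9440 CPM in knockout and 11500 to 13100 CPM in wild type. Lyz2 itself made up 3470 of the mean of 8990 CPM in knockout and 6445 of 12500 CPM in wild type.

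Of the lists for B cells, T and NK cells, neutrophils, eosinophils, mast cells, mesothelium and erythroid cells, only that for neutrophils had called members in edgeR's test. The B cell list had 0 of 17 called and a median of -0.17, with summed levels of 1030 to 1100 CPM in knockout and 974 to 1060 CPM in wild type. T and NK cell genes had 0 of 9 called, a median of -0.65 and sums of 35.9 to 41.3 CPM against 47.3 to 52.1 CPM. Mesothelial and fibroblast genes summed to 13.5 to 14.9 CPM against 8.14 to 11.3 CPM, with 9 of 23 at 0 and 2 tested, and mast cell and basophil genes to 42.6 to 49 CPM against 40.3 to 51.4 CPM, with 9 of 21 at 0. Eosinophil genes summed to 1760 to 1950 CPM against 1840 to 2550 CPM and erythroid and platelet genes to 539 to 717 CPM against 645 to 883 CPM. At an unadjusted p under 0.05 these 6 lists held 0, 2, 1, 1, 1 and 1 genes in that order, and DESeq2 and limma each called 1 erythroid gene and none in the other 5. The macrophage lists that follow stand beside 0.462% of all tested genes called higher and 0.588% called lower. Markers of large resident macrophages had 1 member higher and 4 lower of 32 (median -0.10), and their summed levels overlapped (28900 to 42400 CPM against 33800 to 34800 CPM). The higher one was Selp, P-selectin (log2 1.19 ± 0.21, adjusted p = 0.0189). The lower ones were Cxcl13, Saa3, Fabp7 (log2 -1.03 ± 0.22, adjusted p = 0.0422) and Apoc1. Of 32 markers of small macrophages, monocytes and dendritic cells, Lyz1 and Retnla were higher and Folr2, a folate receptor, was lower (log2 -1.34 ± 0.24, adjusted p = 0.0196). This list summed to 8780 to 11300 CPM in knockout and 6640 to 7950 CPM in wild type, Retnla included. Retnla alone made up 6571 of the mean of 10200 CPM in knockout and 3425 of 7410 CPM in wild type. Its gap was wider than that of the whole list, so the remaining members together were not higher in knockout. Selp, Folr2 and Fabp7 lost their calls without wild-type replicate 1 (adjusted p = 0.103, 0.13 and 0.227).

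The genotype difference ran with the length of the transcript. Across 11023 genes with an annotated length, Spearman's correlation between the log2 difference and exon length was 0.26, a description across genes that are not independent replicates. Genes in the shortest of 20 equal bins (median 1027 bases) had a median difference of -0.24, and those in the longest (15408 bases) 0.26. The called higher genes had a median exon length of 6620 bases and the called lower genes 2425 bases, against 4571 bases over all tested. The trend was uneven across libraries: the deviation from the mean of the 6 libraries correlated with exon length at 0.27 in knockout replicate 3 and at -0.34 and -0.18 in wild-type replicates 1 and 3, and at 0.02 to 0.10 in the other 3. With the trend on exon length removed, 78 genes were called (34 higher, 44 lower), 73 of them among the 116. The list medians moved from -0.33 to -0.14 for cytosolic ribosomal proteins (0 of 76 called, 19 at an unadjusted p under 0.05, 1 by DESeq2), from -0.32 to -0.15 for mitochondrial ribosomal proteins (0 of 74, 9 and 2), from -0.20 to -0.02 for complex I and from -0.26 to -0.05 for the other complexes. The medians for mitosis, the endoplasmic reticulum and glucocorticoid-responsive genes moved less, to 0.64, -0.45 and -0.35. Arg1, Lyz2, Mt1, Knl1, Il1rl1 and Hgf were among the calls that were lost, with adjusted p of 0.0652, 0.0667, 0.0629, 0.0866, 0.0611 and 0.0603. Prkca and Prkce lost theirs as well (adjusted p = 0.0579 and 0.0555). The part of RNA quality or library preparation in this trend was not tested.

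**Figure D4:**
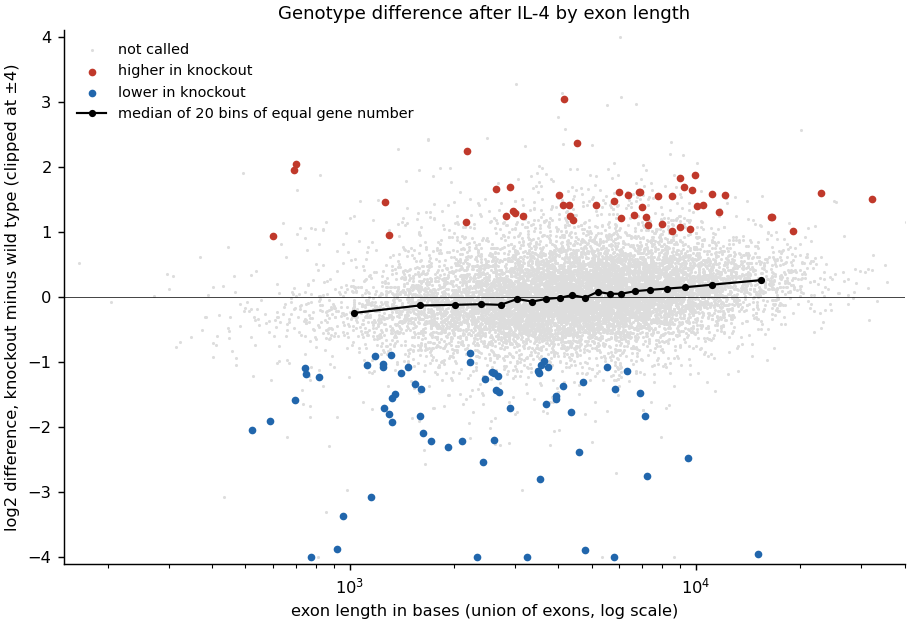
Each point is a gene, with its exon length in bases on a log axis and its log2 difference after IL-4, drawn at 4 or -4 where larger. The black line joins the medians of 20 bins of equal gene number and climbs from -0.24 to 0.26. Called higher genes (red) lie mostly on the long side and called lower genes (blue) on the short side.

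The genotype difference after IL-4 was set beside that in the saline libraries, which share no library with it. Without IL-4 the test called 481 genes (4.14% of 11614, with 2.61% higher and 1.53% lower in knockout), from 2 knockout and 2 wild-type libraries. The knockout saline libraries also held more B cell RNA, with a median basal difference of 3.14 over the B cell list, and its part in the values below was not tested. Of the 51 genes called higher after IL-4, 29 had the same sign without it, 7 were called higher there and 5 lower. Of the 65 called lower, 31 had the same sign, 3 were called lower there and 5 higher. Over all called genes 51.7% had the same sign, and over all 11042 genes with both values 53% did, with Pearson's r of -0.02 and Spearman's correlation of 0.06 across genes, given as a description.

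Igf1, Ppfibp1, Mrvi1, Fbxo32, Lyz1, Sept3 and Pgap1 were higher in knockout under both conditions, and Lyz2, Ebag9 and Serpinb10 were lower under both. Without IL-4, Lyz2 was at 2664 and 9675 CPM in knockout and 23600 and 21900 CPM in wild type (log2 -1.88 ± 0.42, adjusted p = 0.0249). Igf1 stood at 309.5 and 182 CPM in the knockout and 99.9 and 104 CPM in the wild-type saline libraries (log2 1.27 ± 0.25, adjusted p = 0.00851), and Ppfibp1 at 214 and 162 CPM against 59.2 and 75 CPM (log2 1.48 ± 0.26, adjusted p = 0.00317). Fkbp5 had opposite signs: without IL-4 it was at 19.5 and 42 CPM in knockout and 1.6 and 6.08 CPM in wild type (log2 2.99 ± 0.49, adjusted p = 0.0026). Gatm, the first enzyme of creatine synthesis, was at 10.2 and 10.9 CPM against 81.2 and 72.7 CPM without IL-4 (log2 -2.87 ± 0.28, adjusted p = 4.30e-05), and at 186, 183 and 136 CPM against 64.3, 82.6 and 59.7 CPM after it (log2 1.29 ± 0.23, adjusted p = 0.0194, and up to 0.13 without wild-type replicate 1). Angptl4, Cbr2, Hal and Ppl were, like Fkbp5, higher in knockout without IL-4 and lower after it, and Ccdc80, Ctse, Cep55 and 9130008F23Rik were, like Gatm, the reverse. These genes were picked because both conditions called them. Chil3 was near absent without IL-4 in both genotypes, at 1.34 to 1.51 CPM.

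**Figure D5:**
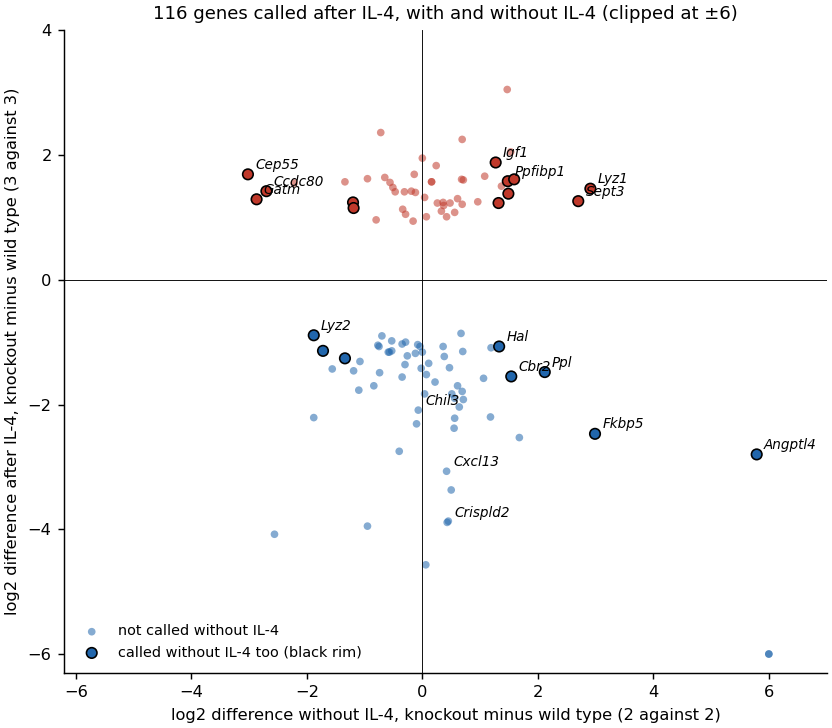
Each point is 1 of the 116 genes called after IL-4, with its log2 difference between genotypes without IL-4 on the horizontal axis (2 against 2 libraries) and after IL-4 on the vertical axis (3 against 3), drawn at 6 or -6 where larger. Black rims mark the 20 genes called in both conditions, 10 with the same sign and 10 with opposite signs.

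The difference of these differences was tested in a fit of all 10 libraries. It called 326 genes (2.81% of 11614), 119 with a more positive and 207 with a more negative knockout minus wild-type difference after IL-4 than without, and 46 of the 116 genes called after IL-4 were among them. This test reuses the 6 IL-4 libraries, so the overlap is not independent of the calls. Among the genes of the largest falls, Crispld2, Saa3, Fkbp5, Rcn3, Cxcl13 and Mmp8 differed between conditions, whereas the difference did not pass the threshold for Igf1 (0.61 ± 0.32, adjusted p = 0.387), Ccnd1 (-0.24 ± 0.39, 0.837) or Clec7a (0.14 ± 0.61, 0.949). In this fit Clec7a was not called after IL-4 either (adjusted p = 0.117).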

How the data were processed

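Libraries of polyadenylated RNA from sorted peritoneal macrophages were analysed. The deposited values were raw read counts per gene and library. Per the submitters' processing notes, the authors aligned reads to mm10 with STAR and counted them with HTSeq; versions, annotation and strand setting are not given in the sources used here. Identifiers were matched to GENCODE M21 (21745 of 22165 had a symbol), whose build may differ from theirs.

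The 6 IL-4 libraries were fitted alone in edgeR 4.0.16 (R 4.3.3) with TMM factors, filterByExpr (minimum count 10, minimum total 15) and a robust quasi-likelihood model with 2 group means and 4 residual degrees of freedom. The common biological coefficient of variation was 27.6%. Tests were two-sided. CPM used TMM-scaled totals. The effect without IL-4 and the difference of effects came from a fit of all 10 libraries, and its CPM come from that fit. Before use, the fit was tested on simulated counts. Alternatives used DESeq2 1.42.0 and limma 3.58.1.

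The text names Lyz2, the 15 largest rises and 15 largest falls among called genes whose groups did not overlap and whose higher mean was at least 10 CPM, and up to 4 called members of each list or 2 given as values. A further gene picked by this rule is left out. The members, lists and tests were chosen with earlier results of these data known, and 12 list entries were absent from the table. Promoter windows are RefSeq's (GRCm38.p6), with 83 of 116 called genes matched.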

Additional observations from a re-analysis of the deposited data

Results flagged for a closer look

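For 56 genes among those picked by the naming rule, called after IL-4 or mentioned beside them, the genotype difference after IL-4 differed from that without IL-4 in edgeR's interaction test over all 10 libraries, at an adjusted p under 0.05. Values below are the log2 difference after IL-4 minus that without, and each was the test of the difference itself. The knockout saline libraries held more B cell RNA, whose part in these values was not tested.

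Among the largest falls after IL-4, the value was -4.32 for Crispld2, -5.46 for Fkbp5, -3.38 for Saa3 and -2.92 for Tgm2, all glucocorticoid-responsive. In the same list it was -2.47 for Mt2 and -2.63 for Fpr1. For the lectins Chil3 and Clec10a it was -2.02 and -2.31. It was -3.49 for Cxcl13, -2.78 for Rcn3, -1.86 for Srm and -3.87 for the pseudogene Gm8730. Mmp8, S100a9 and S100a8 of the neutrophil list had -4.21, -2.67 and -2.64. In the 4 saline libraries Mmp8 stood at only 0.343 to 2.59 CPM and Chil3 at 1.34 to 1.51 CPM. The apolipoprotein genes Apoc1 and Apoc2 had -2.27 and -1.61, and Cd63 had -1.86.

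Among genes of the naming rule, a more positive difference after IL-4 was found for Cep55 (4.71), Knl1 (3.77), Elovl7 (2.91), Cd200r3 (2.57), Lrp5 (2.29), Gabbr1 (2.12), Dgkg (1.83) and Ccl24 (1.76). The first 2 values rest on low saline levels. Cep55 stood there at 0.216 and 0.447 CPM in knockout and 1.89 and 3.77 CPM in wild type. Knl1 stood at 0.324 and 2.33 CPM against 3.4 and 9.42 CPM. Among called genes outside the rule it was found for Gatm (4.15), Ccdc80 (4.12), Btc (3.08), Ctse (2.44), 9130008F23Rik (2.34), Chn2 (2), Aqp9 (1.88), Impact (1.61) and Tiam1 (1.51). A more negative difference was found outside the rule for Ppl (-3.61), Cbr2 (-3.1), Fpr2 (-2.48), Hal (-2.4) and C5ar1 (-1.85). Angptl4 had -8.59, St6galnac2 -15.15 and Cygb -14.09, and all 3 are fitted values that depend on the prior count. Angptl4 was at 0 and 0.0856 CPM in the wild-type saline libraries, and St6galnac2 and Cygb were at 0 there and in the knockout IL-4 libraries. Lyz1 was higher in knockout under both conditions, but by less after IL-4 (-1.45).

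Some named genes that were not called after IL-4 also differed. They were Mki67 (2.79), the glucocorticoid target Tsc22d3 (-1.8), the replication genes Clspn (2.63) and Pola1 (2.13), the scavenger receptor Colec12 (1.37), the interferon-induced GTPase Iigp1 (2.31), Pmaip1 (2.31), Gpx3 (-2.06), Ankrd37 (-2.43) and the endothelial marker Pecam1 (-2.05). Cd22, a B cell marker, had -3.94, with a difference of 3.42 without IL-4 and -0.53 after it. Hba-a1, a globin gene with 0 counts in the knockout IL-4 libraries, had -10.47, a fitted value that depends on the prior count.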

How the results depend on the processing

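No called gene changed sign under any alternative run. Called genes numbered 377 (199 higher, 178 lower) with DESeq2's test and 235 (114, 121) with no filter on low counts, against 116 (51, 65). After a trend on gene span was removed they numbered 77 (28, 49), and on exon length 78 (34, 44); both were chosen after seeing the data. DESeq2 size factors gave 117, library totals 127 (49, 78), limma 110, a 5 CPM filter 107 and a fit of all 10 libraries 96, where 32 of the 116 lost the call, among them Lyz2 (adjusted p = 0.249), Arg1, Clec7a, Nuf2, Knl1, Apoc1 (0.101), Folr2 (0.0582), Fabp7 (0.0689), Ppl (0.134), Sept3 (0.154), St6galnac2 (0.0622) and Cygb (0.104). Leaving out 1 library gave 20 to 141 calls, 4 to 81 higher and 16 to 60 lower. For the difference of the effects, the 326 calls (119, 207) became 623 (289, 334) with DESeq2 and 819 (487, 332) without a filter, so the majority turned there. Library totals gave 367 (92, 275) and shifted the median of all genes to -0.17. Without 1 library there were 182 to 397 (45 to 177, 137 to 220). Nothing in the labels says that replicate numbers pair samples. Correlations of deviations from the group means were 0.012, -0.084 and -0.023 for equal numbers and -0.155 to 0.179 for unequal ones. With 3 libraries a group these values depend on one another and cannot decide whether samples were paired. With a replicate block 143 genes were called (61, 82), 110 of them shared, and 282 (103, 179) for the difference of the effects. Depth and 3 libraries a group limit what is called: 36.7% of simulated 2-fold changes were called.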
